A study of Mus musculus with 2 samples.

Results

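The mitochondrial respiratory chain is built from subunits made from nuclear genes and a small set made from the mitochondrial genome, and the nuclear set is described here in the cortex of *Rbfox3* knockout and wild-type mice. Its members were chosen by gene symbol alone, as the *Nduf* genes of the a, b, c, s and v groups, *Sdha* to *Sdhd*, the *Uqcr* genes with *Cyc1*, the *Cox* subunit genes expressed outside muscle and the *Atp5* genes, averaging 1 FPKM or more over both libraries (FPKM is the number of fragments per kilobase of transcript, scaled to the mapped fragments of the library). This gave 77 genes of the 13042 genes at that level, and of 37303 genes in the deposited table. They fell into 37 genes of complex I, 4 of complex II, 9 of complex III, 10 of complex IV and 17 of complex V. A further symbol match, *Atp5l2*, was under the minimum, at 0.251 FPKM in KO and listed at 0 in WT. The lowest member inside it was *Ndufa11*, at 6.48 FPKM in KO and 6.91 FPKM in WT.

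RNA-seq had been done on cerebral cortex, from the right hemisphere, of male mice at P56. The KO library came from *Rbfox3*-/- mice (homozygous for a targeted allele on a C57BL/6N background, strain B6 in the labels). RBFOX3 is a splicing regulator of neurons. The WT library came from wild-type littermates of heterozygous crosses. There was 1 library per genotype, and the number of mice behind each was not given in the sources used here. No test between genotypes exists for such data, so every difference below describes these libraries, and sizes are read against the share of all genes that lay as far apart.

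Complexes I and II pass electrons from NADH and succinate to ubiquinone, complex III passes them on to cytochrome c, and complex IV hands them to oxygen. Complexes I, III and IV pump protons across the inner membrane as they do so, and complex V, the ATP synthase, lets the protons back through a turning ring and makes ATP. In the brain most of this ATP is spent on ion pumping and synaptic transmission in neurons, and complex II is the member of the chain that also works as an enzyme of the citric acid cycle.

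*Rbfox3* itself was at 6.46 FPKM in KO and 57.3 FPKM in WT, 8.87-fold lower in KO, so the labels of both libraries hold. Cortical excitatory neuron markers were present in both, with a summed level of 520 FPKM in KO and 458 FPKM in WT over 9 entries. Of the marker lists of other cells and tissues, some were near level by summed level and others differed. The KO over WT ratio of summed levels was 1.01 for inhibitory neurons, 1.04 for astrocytes and 1.03 for oligodendrocyte precursors. For microglia it was 0.982 and for endothelial cells 0.890. Single markers within these lists differed more. Of 6 inhibitory neuron markers, 5 had a log2 ratio above 0 (median 0.15), with *Sst* at -0.34. Astrocyte markers ran from *Gfap* (-0.47) to *Aldh1l1* (0.27), with 3 of 7 below 0. Endothelial markers ran from *Cldn5* (-1.10) to *Slco1a4* (0.11), with 3 of 4 below 0. Of 6 microglial markers, 4 were below 0. All 8 oligodendrocyte markers were lower in KO (summed level 1106 FPKM in KO and 1621 FPKM in WT, median log2 ratio -0.52), as were all 8 striatal markers (73.4 FPKM in KO and 201 FPKM in WT, median -1.26), and the choroid plexus marker *Ttr* was at 3.71 FPKM in KO and 221 FPKM in WT. None of these 17 markers was at 0 in either library. The part of these cells and tissues in the values of the respiratory chain was not tested, and in bulk tissue fewer cells of a type and less RNA per cell cannot be told apart.

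The respiratory chain RNAs as a set lay slightly lower in KO. Of the 77 members, 64 had a log2 ratio below 0, against 45.6% of all genes, where the log2 ratio is that of KO + 1 over WT + 1 FPKM. Their median log2 ratio was -0.11, against 0.02 over all genes. Their summed level was 7336 FPKM in KO and 7874 FPKM in WT, a ratio of 0.932. The differences of single members were small. At least 1.2-fold lower in KO were 7 members, against 8.14% of all genes, and at least 1.2-fold higher was no member, against 10.8% of all genes. No member differed 2-fold, against 1.07% of all genes. The share of members past 1.2-fold in the lower direction was thus near that of all genes as deposited. The count was 11 after upper-quartile scaling, against 9.61% of all genes, and 2 or 3 by the definition of length after centring on transcript length class, against 7.52% or 7.78% of protein-coding genes. The log2 ratios of the members lay between -0.40 and 0.10, in a narrow range on the low side of 0. The levels themselves kept their order, with a Spearman rho of 0.99 between the libraries over the 77 members, which share the same 2 libraries.

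**Figure D1:**
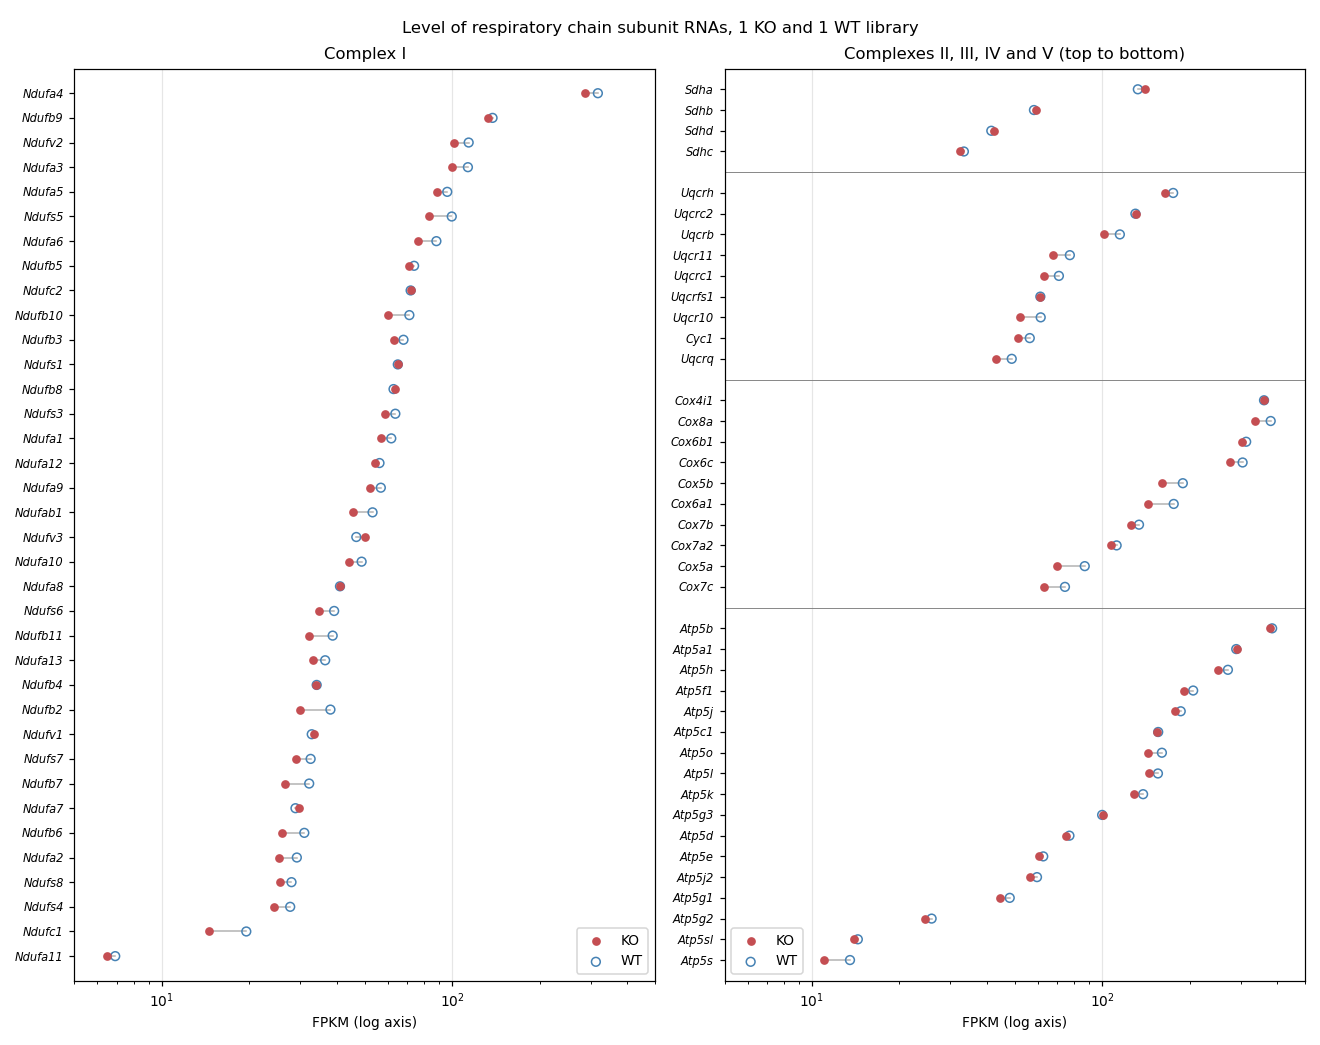
FPKM of 76 of the 77 subunit genes on a log axis, with the KO library as filled and the WT library as open circles, ordered by mean level within a complex. The KO circle is to the left of the WT circle for most genes of complexes I, III, IV and V and to the right for 3 of the 4 genes of complex II.

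The shift was not the same in each complex. The median log2 ratio was -0.13 in complex I (31 of 37 members below 0), -0.16 in complex III (8 of 9), -0.16 in complex IV (9 of 10) and -0.07 in complex V (15 of 17). Complex II had a median of 0.03 and 1 of its 4 members below 0. The summed levels also placed complex II highest and complex V next, with a KO over WT ratio of 0.915 for complex I, 1.03 for complex II, 0.921 for complex III, 0.913 for complex IV and 0.957 for complex V. After each log2 ratio was centred on the median of genes of similar transcript length, the medians were -0.06 in complex I and -0.07 in complex III with the lengths of the basic transcripts, and -0.09 and -0.11 with those of all coding transcripts. Whether the complexes differ from each other could not be tested with 1 library per genotype.

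**Figure D2:**
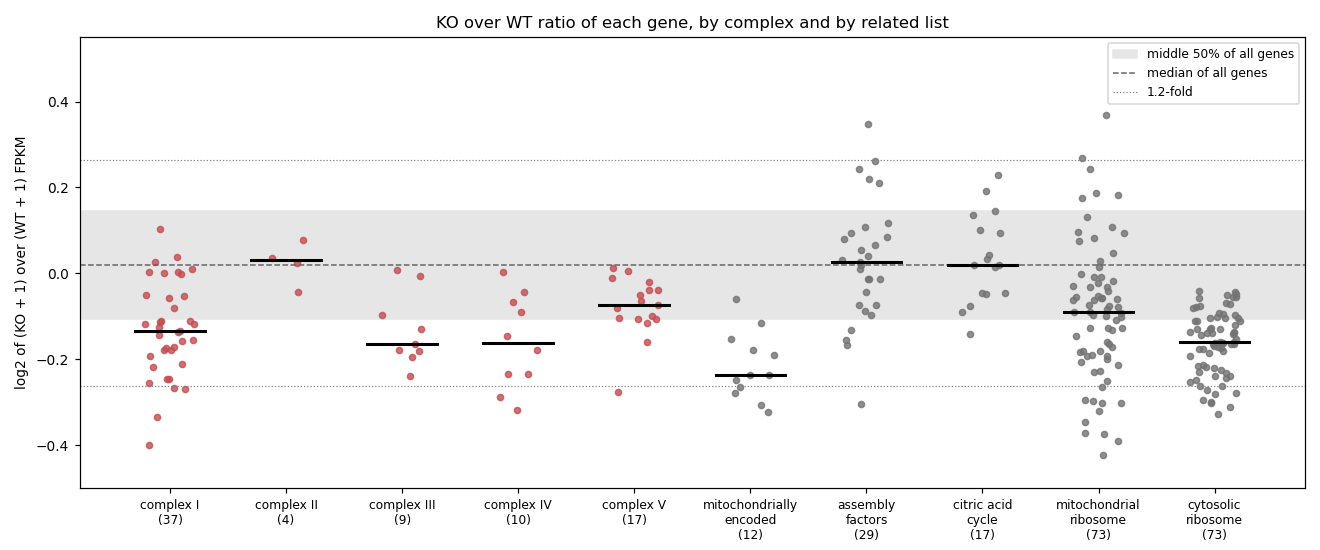
Log2 ratio of KO + 1 over WT + 1 FPKM for each gene (points) and the median (bar) of the 5 complexes and of 5 related lists, with the number of genes in brackets. Complexes I, III, IV and V lie mostly below the median of all genes (dashed line, 0.02) and complex II and the citric acid cycle genes lie around it; *mt-Co1*, listed at 0 in KO, is left out.

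Transcript length moved with these ratios. Across 12145 other protein-coding genes the median log2 ratio was -0.11 for transcripts of up to 600 bases and 0.12 for those over 5000 bases, with a Spearman rho of 0.32 between length and log2 ratio across genes, which are not independent replicates. Respiratory chain transcripts are short. The 49 members of up to 1000 bases had a median of -0.12 with 44 below 0, beside a median of -0.10 with 69.3% below 0 in the 880 other genes of that length. In the 28 longer members the median was -0.10 with 20 below 0, beside 0.03 with 43.4% below 0 in 11265 other genes. At a mean of at least 25 FPKM, nearer to the level of the members, the 299 other genes of up to 1000 bases had a median of -0.11 with 80.6% below 0. Only members are left out of these other genes, which are thus not all unrelated to the chain. They still hold cytosolic ribosomal protein genes (73 over all lengths, median length 777.5 bases, all below 0) and mitochondrially encoded subunits. In the shortest class, up to 600 bases, the members of at least 25 FPKM lay lower than the 65 other genes. The medians were -0.18 and -0.14. Members at that level lay higher between 600 and 800 bases (-0.08 beside -0.13) and between 1000 and 1500 bases (-0.05 beside -0.09). Between 800 and 1000 bases the medians were near each other, at -0.09 and -0.08. Members lay lower between 1500 and 2000 bases (-0.11 beside -0.05) and between 2000 and 3000 bases (-0.11 beside -0.002). The 26 members over 1000 bases at that level had a median of -0.10, beside 0.02 in 2676 other genes. These other genes also include genes longer than any member. Over the 77 members the Spearman rho between length and log2 ratio was 0.25. It was 0.04 over the 37 genes of complex I, 0.40 over 4 of complex II and 0.73 over 9 of complex III. In complexes IV and V it was 0.16 over 10 genes and 0.17 over 17. The part of length in the members' ratios was not tested. After each log2 ratio was centred on the median of its length class, which was done after the data were seen, the median over the members was -0.03 and 44 of 77 were below 0, and with lengths taken over all coding transcripts in place of the basic set of the annotation it was -0.08 with 57 of 77 below 0.

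**Figure D3:**
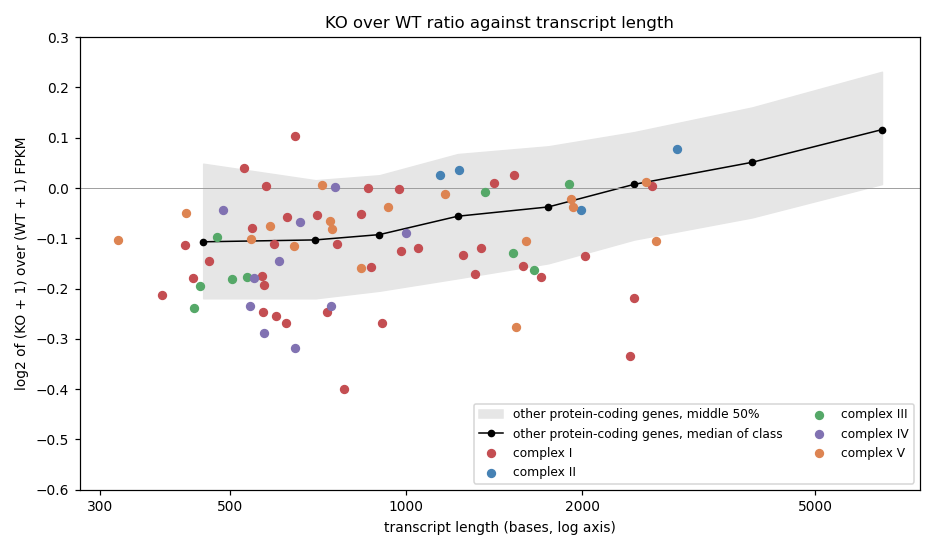
Log2 ratio of KO + 1 over WT + 1 FPKM against transcript length (log axis) for the 77 members, coloured by complex, with the median (line) and the middle 50% (band) of other protein-coding genes in 8 length classes. The line climbs with length, and most members lie at its short end within or near the band.

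Complex I takes electrons from NADH through a flavin and a chain of iron-sulfur clusters held by its core subunits. The 7 nuclear core subunits had a median log2 ratio of -0.13, with 5 below 0. The entry point *Ndufv1*, which binds NADH and the flavin, was at 33.4 FPKM in KO and 32.8 FPKM in WT (log2 ratio 0.03), and *Ndufs1*, the largest iron-sulfur subunit, at 65.1 FPKM in KO and 65.0 FPKM in WT. The iron-sulfur subunit *Ndufv2* was lower in KO, at 101 FPKM against 114 FPKM in WT (log2 ratio -0.17). Further core subunits on the way to ubiquinone were slightly lower in KO. *Ndufs3* was at 58.6 FPKM in KO and 63.7 FPKM in WT. *Ndufs7*, which carries the last cluster before ubiquinone, was at 29.1 FPKM in KO and 32.5 FPKM in WT, and *Ndufs8* at 25.5 FPKM in KO and 28.0 FPKM in WT. None of the 7 core subunits reached a 1.2-fold difference.

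The 30 accessory subunits of complex I, which surround the core and are needed for its assembly and stability, had a median of -0.13 with 26 below 0. The 4 complex I genes at least 1.2-fold lower in KO were all accessory subunits of the membrane arm. *Ndufc1* was at 14.6 FPKM in KO and 19.5 FPKM in WT, the lowest log2 ratio of any member at -0.40. *Ndufb2* was at 30.0 FPKM in KO and 38.1 FPKM in WT (-0.33). *Ndufb7* was at 26.5 FPKM in KO and 32.2 FPKM in WT, and *Ndufb11* at 32.0 FPKM in KO and 38.7 FPKM in WT (-0.27 for each). The 10 *Ndufb* genes together had a median of -0.18 with 9 below 0, the 14 *Ndufa* genes, *Ndufab1* included, a median of -0.13 with 13 below 0. *Ndufab1*, which is also the acyl carrier protein of mitochondrial fatty acid synthesis, was at 45.6 FPKM in KO and 53.2 FPKM in WT. At the other end, *Ndufv3*, an accessory subunit near the NADH site, was at 50.3 FPKM in KO and 46.7 FPKM in WT, the highest log2 ratio of any member at 0.10, and *Ndufa7* was at 29.7 FPKM in KO and 28.9 FPKM in WT (0.04). *Ndufa4*, known as a subunit of complex IV in spite of its name, had the highest level of the group, at 287 FPKM in KO and 318 FPKM in WT (-0.14). With *Ndufa4* counted in complex I by its symbol, levels there spanned 44.3-fold in KO and 46.0-fold in WT. The next highest level was that of *Ndufb9*, at 133 FPKM in KO and 138 FPKM in WT.

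Complex II is the only complex here with no subunit made from the mitochondrial genome, and its 4 RNAs were at nearly equal levels in both libraries. *Sdha*, the flavin subunit that oxidises succinate, was at 140 FPKM in KO and 133 FPKM in WT (log2 ratio 0.08). The iron-sulfur subunit *Sdhb* was at 59.2 FPKM in KO and 58.2 FPKM in WT. The membrane anchor *Sdhc* was the member below 0, at 32.4 FPKM in KO and 33.4 FPKM in WT (-0.04), and the other anchor *Sdhd* was at 42.5 FPKM in KO and 41.5 FPKM in WT (0.04). All 4 *Sdh* transcripts were over 1000 bases long, and centred on their length class with the basic transcripts their median was 0.08.

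In complex III the core and redox subunits and the small subunits had different medians. *Uqcrc2*, a core subunit, was at 131 FPKM in KO and 130 FPKM in WT, and the Rieske iron-sulfur protein *Uqcrfs1* at 60.9 FPKM in KO and 61.2 FPKM in WT. The core subunit *Uqcrc1* was at 63.2 FPKM in KO and 70.9 FPKM in WT (log2 ratio -0.16), and cytochrome c1, *Cyc1*, at 51.4 FPKM in KO and 56.3 FPKM in WT (-0.13). These 4 had a median of -0.07, while the 5 small subunits had a median of -0.18 and were all below 0. The lowest was *Uqcr10*, at 51.9 FPKM in KO and 61.4 FPKM in WT (-0.24), followed by *Uqcr11*, at 67.4 FPKM in KO and 77.4 FPKM in WT (-0.20). *Uqcrh*, the hinge protein, had the highest level, at 164 FPKM in KO and 176 FPKM in WT, and *Uqcrq* the lowest, at 42.9 FPKM in KO and 48.8 FPKM in WT. Length differed in the same way in complex III, where the 5 small subunits had transcripts of 434 to 535 bases and the other 4 of 1363 to 1896 bases.

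The catalytic centre of complex IV is made from the mitochondrial genome, and the nuclear subunits frame it. *Cox4i1*, the largest nuclear subunit, was level, at 361 FPKM in KO and 361 FPKM in WT. *Cox5a* was at 69.6 FPKM in KO and 87.1 FPKM in WT (log2 ratio -0.32), the largest difference in the complex, and *Cox5b*, which binds zinc, at 161 FPKM in KO and 189 FPKM in WT (-0.24). All 7 subunits of the 6 to 8 groups were below 0, with a median of -0.15. *Cox6a1* was at 144 FPKM in KO and 176 FPKM in WT (-0.29), at least 1.2-fold lower like *Cox5a*. *Cox6b1*, nearest to level in the group, was at 304 FPKM in KO and 313 FPKM in WT (-0.04), and *Cox7c*, the lowest of the complex by mean level, at 63.1 FPKM in KO and 74.4 FPKM in WT (-0.23). Centred on length class, the median of complex IV was -0.055 with the basic transcripts and -0.12 with lengths over all coding transcripts.

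Complex V showed the smallest median difference after complex II, and centred on length class its median was 0.01 with the basic transcripts and -0.04 with all coding transcripts. The 5 genes of the F1 head, where ATP is made, had a median log2 ratio of -0.02. The catalytic beta subunit *Atp5b*, the highest of the 77 members, was at 379 FPKM in KO and 385 FPKM in WT, and the alpha subunit *Atp5a1* at 292 FPKM in KO and 289 FPKM in WT. The shaft of the motor was as level, with *Atp5c1* at 155 FPKM in KO and 156 FPKM in WT, *Atp5d* at 75.1 FPKM in KO and 77.1 FPKM in WT, and *Atp5e* at 60.5 FPKM in KO and 62.6 FPKM in WT. The 4 genes of the peripheral stalk, which holds the head still, were all below 0 with a median of -0.11. *Atp5o*, which joins the stalk to the head, was at 144 FPKM in KO and 161 FPKM in WT (-0.16). The 3 small membrane subunits *Atp5k*, *Atp5l* and *Atp5j2* were also all below 0, with a median of -0.10. *Atp5s* was the lowest ratio and the lowest level of the group, at 11.0 FPKM in KO and 13.5 FPKM in WT (-0.28), and *Atp5sl* was at 14.0 FPKM in KO and 14.4 FPKM in WT. Both are taken in by their symbols and are not subunits of the enzyme, and without them the median over the members stayed at -0.11.

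The ring that turns in the membrane is made of subunit c, which 3 genes encode with the same mature protein. The last 75 codons of their coding sequences show where their RNAs can be told apart. They translate to the same 75 residues, but 57 of the 225 bases differ in at least 1 of the 3 genes, and these are in capitals below. They were read 5′ to 3′ from the minus strand of GRCm38, from exons within chr11:96073107-96073635 for *Atp5g1*, chr15:102663017-102665166 for *Atp5g2* and chr2:73908596-73909296 for *Atp5g3*. Identity over the bases shown was 84.9% between *Atp5g1* and *Atp5g2*, 80.0% between *Atp5g1* and *Atp5g3* and 78.7% between *Atp5g2* and *Atp5g3*.
Atp5g1: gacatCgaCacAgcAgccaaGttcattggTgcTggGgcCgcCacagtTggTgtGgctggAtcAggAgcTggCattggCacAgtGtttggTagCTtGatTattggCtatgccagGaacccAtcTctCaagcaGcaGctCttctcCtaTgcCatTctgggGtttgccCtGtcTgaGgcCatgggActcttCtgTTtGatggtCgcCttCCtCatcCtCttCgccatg
Atp5g2: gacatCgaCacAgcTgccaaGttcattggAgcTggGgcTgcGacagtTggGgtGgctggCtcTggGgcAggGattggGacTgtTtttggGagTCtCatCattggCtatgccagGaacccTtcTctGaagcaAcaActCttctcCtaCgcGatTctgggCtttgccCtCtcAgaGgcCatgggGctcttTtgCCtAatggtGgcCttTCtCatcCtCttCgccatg
Atp5g3: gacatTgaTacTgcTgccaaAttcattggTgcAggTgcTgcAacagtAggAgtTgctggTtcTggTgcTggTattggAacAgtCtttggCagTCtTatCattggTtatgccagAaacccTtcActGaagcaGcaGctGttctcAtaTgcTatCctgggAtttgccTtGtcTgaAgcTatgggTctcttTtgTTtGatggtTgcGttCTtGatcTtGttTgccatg
Most of the subunit c RNA came from *Atp5g3*, at 100.3 FPKM in KO and 99.9 FPKM in WT, which is 59.2% of the 3 genes' FPKM in KO and 57.5% in WT. *Atp5g1* was at 44.6 FPKM in KO and 48.0 FPKM in WT, a share of 26.3% in KO and 27.6% in WT. *Atp5g2* was at 24.5 FPKM in KO and 25.8 FPKM in WT, a share of 14.5% in KO and 14.9% in WT. The source of the ring's RNA was thus divided almost alike in both libraries. The longest run of identical bases within the stretch shown was 8 bases over all 3 genes and 20 bases between *Atp5g1* and *Atp5g2*.

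Nuclear respiratory genes are known to be controlled through binding sites of NRF1, of the ETS factor GABP (also called NRF2) and of YY1 close to their start sites. In the RefSeq promoter table of GRCm38.p6, 62 members had at least 1 promoter, of 250 bases before to 50 bases after the start. The NRF1 letters GCGCANGCGC, searched on both strands, were in the promoters of 17 of these 62 genes (27.4%), beside 11.4% of the 9045 promoter genes that averaged 1 FPKM or more and 5.19% of 27025 genes in the table. The ETS letters CCGGAAG were in 16 of the 62 (25.8%), beside 19.1% and 9.93%, and the YY1 letters AAGATGGC in 9 (14.5%), beside 5.20% and 3.19%. Of the general promoter motifs, CCAAT was in 26 (41.9%), beside 43.1% and 41.1%, and TATAAA in 5 (8.06%), beside 8.66% and 15.7%. The log2 ratios were alike with and without the NRF1 letters, with medians of -0.10 in 17 genes and -0.12 in 45. For the ETS letters the medians were -0.11 in the 16 genes with them and -0.11 in the 46 without, and for the YY1 letters -0.16 in 9 and -0.11 in 53. A match to such letters is a description of the sequence and not a measured binding site.

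The 250 bases before the start of *Sdha* and of *Cox6a1* are shown because both hold the NRF1 letters more than once while their RNAs lay on opposite sides of 0. The matches are in capitals, written 5′ to 3′ along the minus strand of GRCm38.p6, at chr13:74350241-74350490 for *Sdha* and chr5:115348959-115349208 for *Cox6a1*. In *Sdha* there are 3 NRF1 matches, and in *Cox6a1* there are 2, with 1 ETS match near the end that reads on the opposite strand.
Sdha: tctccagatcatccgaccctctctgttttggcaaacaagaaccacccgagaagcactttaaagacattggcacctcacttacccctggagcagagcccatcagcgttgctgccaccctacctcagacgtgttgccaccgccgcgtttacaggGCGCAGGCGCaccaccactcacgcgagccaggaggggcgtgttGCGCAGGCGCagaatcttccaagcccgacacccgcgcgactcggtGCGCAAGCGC
Cox6a1: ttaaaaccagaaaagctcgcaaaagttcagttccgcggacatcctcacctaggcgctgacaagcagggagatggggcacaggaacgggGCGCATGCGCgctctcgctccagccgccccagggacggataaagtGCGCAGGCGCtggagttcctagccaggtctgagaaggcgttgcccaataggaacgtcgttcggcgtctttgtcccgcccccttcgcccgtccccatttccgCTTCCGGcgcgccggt

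The isoforms of the members kept nearly the same shares in both libraries. The isoform shift, which is 50% of the summed absolute differences between the shares of a gene's isoforms in KO and in WT, had a median of 0.0227 in the 51 members with at least 2 listed isoforms. Over all 8677 such genes the median was 0.0656, and 0.0499 over the 4555 at 10 FPKM or more in each library. Without isoforms under 5% of their gene in both libraries the median was 0.0393 in 33 members, beside 0.0759 over 6996 genes and 0.0564 over 3559 at 10 FPKM or more. A shift of at least 0.1 was found in 4 of the 51 members (7.84%), beside 34.0% of all such genes and 22.6% of those at 10 FPKM or more. The most abundant isoform was the same in KO and in WT for all 51. The members with the largest shifts were *Atp5sl* (0.13), *Ndufc1* (0.12), *Atp5j2* (0.11), *Atp5h* (0.10) and *Ndufb5* (0.092).

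The isoforms of *Ndufc1*, the member with the lowest ratio, did not move together. Its most abundant isoform was at 8.21 FPKM in KO and 13.3 FPKM in WT, 56.3% of the gene in KO and 68.0% in WT. The second isoform was at 5.31 FPKM in KO and 4.77 FPKM in WT, and the third at 1.06 FPKM in KO and 1.48 FPKM in WT. The difference of the gene thus lay in its first isoform. In *Atp5h*, a stalk subunit, the first isoform was at 153 FPKM in KO and 189 FPKM in WT and the second at 86.2 FPKM in KO and 69.3 FPKM in WT. In *Atp5j2* the first isoform made up 68.9% of the gene in KO and 57.8% in WT, and in *Ndufb5* 72.2% in KO and 65.8% in WT. In *Atp5sl* the first isoform was at 6.42 FPKM in KO and 8.32 FPKM in WT. These isoforms carry no transcript identifiers in the deposited table, so the exons that tell them apart are not named.

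**Figure D4:**
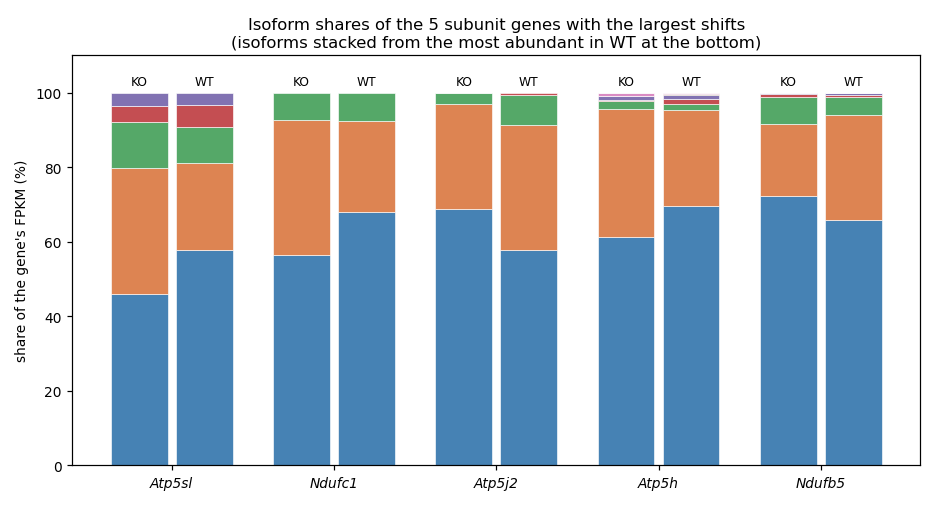
Share of the gene's FPKM (%) taken by each isoform in KO (left bar) and WT (right bar) for the 5 members with the largest isoform shifts, stacked from the isoform with the highest FPKM in WT at the bottom. The bottom isoform is the largest in both bars of every gene and is smaller in KO for *Atp5sl*, *Ndufc1* and *Atp5h* and larger in KO for *Atp5j2* and *Ndufb5*.

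The subunits made from the mitochondrial genome, which complete complexes I, III, IV and V, also lay lower in KO. Of the 13 genes, 12 had a level above 0 in KO and in WT, and these 12 all had a log2 ratio below 0, with a median of -0.24, lower than the median of any nuclear complex. The ratios spanned *mt-Nd3*, at 6908 FPKM in KO and 8643 FPKM in WT (-0.32), and *mt-Nd6*, at 7175 FPKM in KO and 7474 FPKM in WT (-0.06). *mt-Co1* was listed at 0 in KO and at 24564 FPKM in WT. An exact 0 in a table of FPKM can be a failed estimate, so it is not read as absence of this RNA, and *mt-Co1* was left out of the median.

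The RNAs of proteins that assemble the chain lay near the median of all genes. The 29 measured assembly factors had a median log2 ratio of 0.03 with 12 below 0. They ran from *Cox17*, which carries copper to complex IV, at 24.5 FPKM in KO and 30.5 FPKM in WT (-0.30), to *Cox11*, also of copper delivery, at 2.47 FPKM in KO and 1.73 FPKM in WT (0.35). The citric acid cycle, which feeds NADH and succinate to complexes I and II, had a median of 0.02 over 17 genes with 6 below 0, ending in *Fh1* at 27.4 FPKM in KO and 30.4 FPKM in WT (-0.14) and *Ogdh* at 59.1 FPKM in KO and 50.3 FPKM in WT (0.23). Median transcript length was 1813 bases for the assembly factors and 2491.5 bases for the cycle, beside 755 bases for the members. The part of length in the ratios of these lists was not tested. Of the mobile carrier and subunits outside the symbol rule, cytochrome c, *Cycs*, was at 45.0 FPKM in KO and 48.5 FPKM in WT, *Usmg5*, a small ATP synthase protein, at 328 FPKM in KO and 354 FPKM in WT, and the ATP synthase inhibitor *Atpif1* at 178 FPKM in KO and 185 FPKM in WT. *Cox7a2l*, known for its part in joining complexes III and IV, was higher in KO, at 105 FPKM against 96.2 FPKM in WT (0.12). Paralogues typical of muscle were low in both libraries, with *Cox6a2* at 3.66 FPKM in KO and 3.65 FPKM in WT and *Cox7a1* at 2.28 FPKM in KO and 1.83 FPKM in WT (0.21). *Ndufa4l2*, a paralogue of *Ndufa4*, was at 0.972 FPKM in KO and 1.24 FPKM in WT (-0.18).

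Of 14 regulators of mitochondrial biogenesis, 3 were at least 1.2-fold higher in KO, against 10.8% of all genes, and 2 at least 1.2-fold lower, against 8.14% of all genes, with a median log2 ratio of 0.06. The coactivator *Ppargc1a* was at 19.4 FPKM in KO and 12.7 FPKM in WT (0.58), its relative *Ppargc1b* at 2.53 FPKM in KO and 1.70 FPKM in WT (0.39), and the nuclear receptor *Esrra* at 11.8 FPKM in KO and 8.12 FPKM in WT (0.49). The mitochondrial RNA polymerase *Polrmt* was at 7.41 FPKM in KO and 10.8 FPKM in WT (-0.48), and the mitochondrial DNA packaging and transcription factor *Tfam* at 18.4 FPKM in KO and 22.4 FPKM in WT (-0.27). *Nrf1*, whose letters are in the promoters above, was at 4.28 FPKM in KO and 4.62 FPKM in WT, and *Gabpa* at 11.4 FPKM in KO and 10.6 FPKM in WT. Coactivators and the polymerase thus lay on opposite sides of 0 in libraries where the subunit RNAs were slightly lower in KO.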

How the data were processed

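RNA from the cortex of KO and WT mice was sequenced with a strand-specific kit as 1 library per genotype. The extraction note in the labels also allows for hippocampus, and its kit (NucleoSpin) differs from the RNeasy kit of the published methods. The submitters' processing notes name TopHat, Cufflinks and GRCm38, whose versions are not given in the sources used here. The authors deposited FPKM per gene and per isoform, with their own fold changes, p-values and term lists, which were not used. No columns of other samples were present. FPKM carries no read counts, so absolute depth is unknown and no counting interval is given. From the most frequent ratio (0.889) of 1951 low genes with 1 isoform, the KO library was about 1.13 times as deep as the WT library.

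Log2 ratios used KO + 1 over WT + 1 FPKM over genes that averaged 1 FPKM or more, as deposited, in Python 3.11.15 with pandas 2.3.3, and were tested on simulated data. With 1 library per genotype no test was run. Sizes of 1.2-fold and 2-fold were counted. Members and related lists were chosen with earlier results of these data known. Genes were named by rule: the catalytic and redox subunits, the c ring genes, in each complex the 2 highest and 2 lowest ratios and the highest and lowest level, every member past 1.2-fold and the 5 largest isoform shifts, and for related lists the highest and lowest ratio. Some further members and regulators, and the promoters printed, were chosen after their values were seen. Transcript length was the median over basic coding transcripts of GENCODE M21. A definition over all coding transcripts was tried first and was replaced after its result was seen, because it takes in incomplete transcript models. Both are reported for the centred values, except in complex II, where only the basic value is given. The 5 motifs were searched after the values were seen. Promoters came from RefSeq for 62 members. The level of 1 member is not reported here, although it is counted in the medians and sums. Alternatives covered the added value, the filter, the scaling, the membership, the sum of isoforms and transcript length.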

Additional observations from a re-analysis of the deposited data

How the results depend on the processing

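The direction of every complex median held under the 8 alternatives of added value, filter, scaling, membership and summed isoforms. The members at least 1.2-fold lower in KO, 7 as reported, were 11 after upper-quartile scaling, against 9.61% of all genes. They were 10 after centring on the median of all genes, against 9.35% of all genes. Centring on the length class, added after the data were seen, changed most: 2 members were at least 1.2-fold lower with basic transcripts and 3 with all coding transcripts, the median of complex IV was -0.055 and -0.12, and that of complex V was 0.01 and -0.04, with the basic value on the other side of 0. Of the 77 members, 44 were below 0 with basic transcripts and 57 with all coding transcripts. The median isoform shift of the members was 0.0393 with isoforms under 5% left out. No paired analysis was possible because there was 1 library per genotype. With no replicate, no error can be set beside any ratio, and animal, dissection and genotype cannot be told apart.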

Other observations

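All 73 cytosolic ribosomal protein genes had a log2 ratio below 0, against 45.6% of all genes, with a median of -0.16. The lowest was *Rpl6*, at 70.8 FPKM in KO and 89.0 FPKM in WT (-0.33). The highest was *Rps7*, at 120 FPKM in KO and 123 FPKM in WT (-0.04). Of 73 genes taken as mitochondrial ribosomal by their *Mrpl* or *Mrps* symbols alone, 58 were below 0, with a median of -0.09. The lowest ratio was that of *Mrpl44*, at 9.11 FPKM in KO and 12.6 FPKM in WT (-0.42). The highest was that of *Mrps36*, at 19.3 FPKM in KO and 14.7 FPKM in WT (0.37). The 20 measured genes of protein import into mitochondria had a median of -0.13 with 16 below 0, and ran from *Tomm34* at 29.5 FPKM in KO and 37.2 FPKM in WT (-0.33) to *Tomm20* at 76.1 FPKM in KO and 71.4 FPKM in WT (0.09). Glycolysis, the pathway that feeds pyruvate to mitochondria, had a median of -0.03 over 16 genes with 10 below 0, between *Tpi1* at 153 FPKM in KO and 172 FPKM in WT (-0.17) and *Hk1* at 72.0 FPKM in KO and 64.2 FPKM in WT (0.16). Median transcript lengths were 777.5 bases for the cytosolic ribosomal list, 1228 for the mitochondrial ribosomal list, 1468 for import and 2100.5 for glycolysis. Of other protein-coding genes of up to 1000 bases, 69.3% were below 0. The part of length in the ratios of these lists was not tested.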
